A study of Mus musculus with 53 samples.

Results

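Collagen and mesenchymal genes were followed cell by cell in mouse T1 pre-HSCs, embryonic precursors of haematopoietic stem cells (HSCs). The set has 10 genes, chosen by name from earlier results of these data: Col1a1, Col1a2, Col3a1, Col5a1, Pdgfra, Pdgfrb, Dcn, Lum, Postn and Twist1. All 10 are among the 14833 genes of the deposited T1 pre-HSC table. KO cell 11 and wildtype cell 14 had been picked out because they carry several of these genes. Their values for the set are therefore a description and not a test.

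The study measured RNA in single cells of the blood stem cell lineage, with its design centred on long non-coding RNAs. The cells compared here came from the aorta-gonad-mesonephros (AGM) region of E11 embryos, the site where the earliest HSCs arise. The 12 KO cells, numbered 1 to 12, carry the genotype mH19 delta_DMR/+, in which the differentially methylated region (DMR) at H19 is deleted. The 10 cells called wildtype, numbered 13 to 22, carry mH19 flDMR/+ and so are controls for that allele. For the driver of the deletion, the surface markers of the sort and the embryo or litter behind each cell, nothing was stated in the labels. With no animal named, each genotype counted as 1 sample, so no test between genotypes was possible, and every spread below is over cells.

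Fibrillar collagens are the rope-like proteins of connective tissue, secreted mainly by fibroblasts and other mesenchymal cells. In the embryo, mesenchyme lies under the endothelium of the dorsal aorta, from which blood stem cell precursors bud. Mesenchymal cells are commonly recognised by collagens, the PDGF receptors, small proteoglycans such as decorin, and transcription factors such as Twist1. Blood and endothelial cells make little fibrillar collagen. In the RefSeq annotation of GRCm38.p6 the collagen genes lie apart: Col1a1 on chromosome 11 at 94936224 to 94953042, Col1a2 on chromosome 6 at 4505618 to 4541543, Col3a1 on chromosome 1 at 45311538 to 45349706 and Col5a1 on chromosome 2 at 27886381 to 28039510. Pdgfra lies on chromosome 5 at 75151322 to 75198206, Postn on chromosome 3 at 54359267 to 54391041 and Twist1 on chromosome 12 at 33957671 to 33959831.

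The values are RPKM, reads corrected for the length of a transcript and for the total of its cell, so levels of different genes in a cell can be compared per length. A gene counted as detected at 1 RPKM or more. KO cells had 1517 to 8408 detected genes and wildtype cells 2067 to 5716, without wildtype cell 19. Cell 19 was not compared: in 24 of 29 stretches of 500 rows its column matched the other cells best when shifted by some rows, against 0 of 29 stretches in each of the other 21 cells. H19, the targeted gene, lay between 0 and 186 RPKM in KO cells and between 231 and 1261 RPKM in wildtype cells. KO cell 11 had 0.81 RPKM of H19 and wildtype cell 14 had 389 RPKM. Sequencing depth is unknown, and an exact 0 can be a failed estimate, so such a gene is described as listed at 0.

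Most cells carried little or none of the set. No member was detected in 6 KO cells of 12 or in 5 wildtype cells of 9. KO cell 11 had 6 detected members and wildtype cell 14 had 5. Next came KO cells 1 and 5 and wildtype cell 20 with 3 each, then KO cell 9 with 2, and KO cells 3 and 6 and wildtype cells 13 and 18 with 1. Among all genes, 21.3% were detected in KO cell 11 and 27.3% in wildtype cell 14. Cells with at least 5 members made up 1 of 12 KO cells and 1 of 9 wildtype cells, namely the cells that had been picked out.

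**Figure D1:**
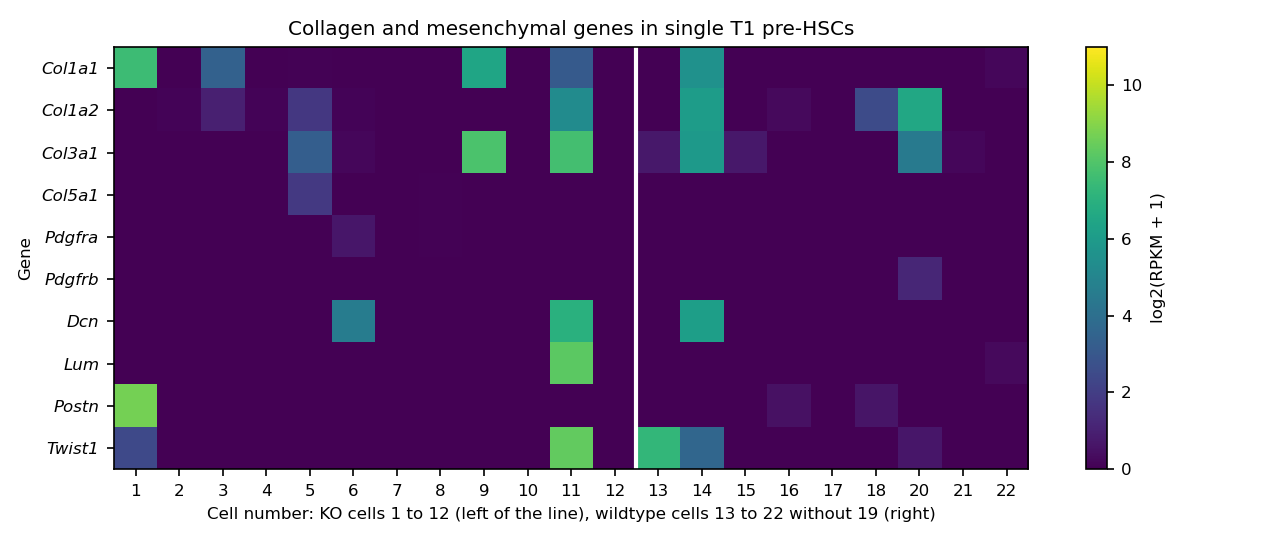
Level of each of the 10 genes as log2(RPKM + 1) (colour) in each of 12 KO cells (left of the white line) and 9 wildtype cells (right), 1 column per cell. KO cell 11 has 6 detected members and wildtype cell 14 has 5, while KO cells 1 and 9 and wildtype cells 13 and 20 hold only 1 or 2 members above 10 RPKM, such as Postn at 419 RPKM in KO cell 1.

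Summed over the set, KO cell 11 had 1010 RPKM and wildtype cell 14 had 254 RPKM. KO cells 1 and 9 followed KO cell 11 with 606 and 322 RPKM, and wildtype cells 13 and 20 followed wildtype cell 14 with 156 and 118 RPKM. KO cell 11 thus held 50.8% of the KO sum and wildtype cell 14 held 47.5% of the wildtype sum. KO cells 1, 9 and 11 and wildtype cells 13, 14 and 20 together held 97.8% of the sum over all 21 cells. Even in KO cell 11 the set made up only 0.11% of the summed RPKM of the cell.

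Col1a1 and Col1a2 encode the chains that assemble into type I collagen, the most abundant collagen of connective tissue. Among KO cells 4 of 12 had detected Col1a1, and among wildtype cells 1 of 9. Its KO values ran from 0 to 183 RPKM with a median of 0, and the detected ones were 183 RPKM in KO cell 1, 86.8 in KO cell 9, 9.83 in KO cell 3 and 7.59 in KO cell 11. In wildtype cells it reached 45.7 RPKM in cell 14 and at most 0.15 RPKM in any other, again with a median of 0. KO cell 11 therefore carried the lowest of the detected Col1a1 values, and the genotypes overlapped.

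For Col1a2 the numbers of detecting cells were 2 of 12 KO and 3 of 9 wildtype. In KO cells it was at 38.2 RPKM in cell 11 and 2.39 RPKM in cell 5, with a median of 0.032 and a minimum of 0 RPKM. In wildtype cells it was at 95.3 RPKM in cell 20, 67.5 in cell 14 and 4.73 in cell 18, with a median and a minimum of 0. The chains of type I collagen were seldom detected together. Each was detected in 5 cells, and both in only 2, KO cell 11 and wildtype cell 14. KO cells 1 and 9 had Col1a1 with Col1a2 listed at 0, and wildtype cell 20 had Col1a2 with Col1a1 listed at 0.

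Col3a1 encodes type III collagen, which is abundant in vessel walls and soft tissue. It was detected in 3 of 12 KO cells, at 235 RPKM in cell 9, 210 in cell 11 and 8.91 in cell 5, over a median and a minimum of 0 RPKM. In wildtype cells it was detected in 2 of 9, at 58.3 RPKM in cell 14 and 21.4 in cell 20, over a median of 0.15 and a minimum of 0 RPKM. High Col3a1 was thus found in cells of both genotypes. Col5a1, a chain of type V collagen that starts fibril formation, was detected only in KO cell 5, at 2.53 RPKM, and reached 0.0023 RPKM at most in wildtype cells. KO cell 5 also had 8408 detected genes, 56.7% of all and the highest number of the 21 cells, and its 3 detected members were all under 10 RPKM.

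Dcn and Lum encode decorin and lumican, small leucine-rich proteoglycans that bind collagen fibrils. Dcn was at 126 RPKM in KO cell 11, 23.2 RPKM in KO cell 6 and listed at 0 in the other 10 KO cells. In wildtype cells it was at 71.6 RPKM in cell 14 and at most 0.011 RPKM elsewhere. Lum was detected in KO cell 11 alone, at 303 RPKM, and was listed at 0 in the other 11 KO cells, while wildtype cells reached 0.23 RPKM at most. The genes are neighbours on chromosome 10, with Dcn at 97479500 to 97518163 and Lum at 97565501 to 97572703, 47337 bases apart (GRCm38.p6). They were detected together in KO cell 11, whereas wildtype cell 14 and KO cell 6 had Dcn with Lum listed at 0.

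Postn encodes periostin, a matrix protein of fibroblasts and heart cushion tissue. It was detected in KO cell 1 alone, at 419 RPKM, the highest value of any member in any cell. In the other 11 KO cells it was listed at 0, KO cell 11 included, and in wildtype cells it reached 0.53 RPKM at most, with wildtype cell 14 at 0.

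Twist1, a basic helix-loop-helix transcription factor of embryonic mesenchyme, was at 325 RPKM in KO cell 11, at only 4.46 RPKM in KO cell 1, and was listed at 0 in the other 10 KO cells. In wildtype cells it was at 155 RPKM in cell 13, 11.3 in cell 14 and 0.57 in cell 20, and was listed at 0 in 6 of 9. Wildtype cell 13 had no other detected member. In KO cell 11, 16.5% of the detected genes had a higher RPKM than Twist1, 17.3% a higher RPKM than Lum and 71.2% a higher RPKM than Col1a1. In wildtype cell 14 these shares were 37.9% for Dcn, 39.3% for Col1a2 and 67.7% for Twist1.

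The PDGF receptors, through which mesenchymal cells respond to platelet-derived growth factor, were hardly detected. Pdgfra was detected in 0 of 21 cells, which by a limit of 3 counts allows a share of up to 14.3% (exact Clopper-Pearson 95% upper bound 16.1%, both for counting error only), and its highest value was 0.598 RPKM, in KO cell 6. Pdgfrb was detected only in wildtype cell 20, at 1.25 RPKM, and reached 0.028 RPKM at most in KO cells. In KO cell 11 Pdgfra had 0.0033 RPKM and in wildtype cell 14 it had 0.0018 RPKM, and Pdgfrb was listed at 0 in both. The label of a mesenchymal set thus holds in both cells for Col1a1, Col1a2, Col3a1, Dcn and Twist1, in KO cell 11 alone for Lum, and in neither for Col5a1, Postn or the receptors. No cell type name is given to either cell. They are called carrier cells below.

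Just inside the limit of 5 members stood wildtype cell 14, and just outside it stood KO cells 1 and 5 and wildtype cell 20 with 3. The carriers shared Col1a1, Col1a2, Col3a1, Dcn and Twist1, and Lum was the sixth member of KO cell 11. Of the 8 members detected in any KO cell, 4 had their highest KO value in cell 11 (Col1a2, Dcn, Lum and Twist1), against 8.02% of the 12170 genes detected in a KO cell. Of the 6 members detected in any wildtype cell, 3 had their highest wildtype value in cell 14 (Col1a1, Col3a1 and Dcn), against 12.3% of 10663 genes. As the cells were chosen by these genes, nothing is read from those counts.

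The promoters of 3 members that were detected together in both carriers are shown as the sequence before their starts, from RefSeq on GRCm38.p6, the 250 bases ahead of the annotated start on the plus strand. Promoter entries matched 6 of 10 members. Col1a2 is given for chr6:4505368-4505617, Col3a1 for chr1:45311288-45311537 and Twist1 for chr12:33957421-33957670. Capitals mark matches, on either strand, to 3 motifs: CCAAT, the core of the CCAAT box; TATAAA, a form of the TATA box; and CANNTG, the E-box bound by basic helix-loop-helix factors such as Twist1.
Col1a2: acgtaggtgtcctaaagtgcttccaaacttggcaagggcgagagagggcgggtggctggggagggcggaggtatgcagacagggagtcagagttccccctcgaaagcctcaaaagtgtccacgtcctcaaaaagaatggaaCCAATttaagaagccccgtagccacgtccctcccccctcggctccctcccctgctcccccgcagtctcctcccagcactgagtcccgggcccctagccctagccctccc
Col3a1: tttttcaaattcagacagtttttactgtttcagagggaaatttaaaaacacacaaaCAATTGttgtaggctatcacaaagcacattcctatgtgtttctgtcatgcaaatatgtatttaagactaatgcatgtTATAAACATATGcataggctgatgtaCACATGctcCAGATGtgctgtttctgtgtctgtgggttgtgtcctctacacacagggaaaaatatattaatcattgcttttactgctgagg
Twist1: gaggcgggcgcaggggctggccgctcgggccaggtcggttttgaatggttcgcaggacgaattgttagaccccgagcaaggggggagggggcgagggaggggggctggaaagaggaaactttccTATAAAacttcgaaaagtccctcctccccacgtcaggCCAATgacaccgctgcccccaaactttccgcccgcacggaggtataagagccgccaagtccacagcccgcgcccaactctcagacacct
Col1a2 held 1 CCAAT and neither of the other motifs. Col3a1 held 4 matches to CANNTG and 1 TATAAA, which ends directly before an E-box, and no CCAAT. Twist1 held 1 CCAAT and 1 TATAAA and no match to CANNTG. Over 32851 promoter windows of the same length, 33.8% held CCAAT, 12.4% held TATAAA and 66.2% held CANNTG. None of the 3 motifs was thus found in all 3 promoters, while Col1a2 and Twist1 both held CCAAT and Col3a1 and Twist1 both held TATAAA. A match is a description of letters, not of binding.

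Other genes of the matrix programme were read from lists written with earlier results known: other collagens, collagen maturation, other matrix genes, mesenchymal transcription factors, PDGF ligands with collagen receptors, and pericyte and smooth muscle genes. Of the 100 listed genes found in the table, 34 were detected in KO cell 11 and 30 in wildtype cell 14, beside 21.3% and 27.3% of all genes in these cells. The share in KO cell 11 was above that of all genes, and the share in wildtype cell 14 was close to it. KO cells 1 and 9 detected 18 each, beside 10.2% and 12.7% of all genes. Wildtype cell 20 detected 28 beside 30.1%, and wildtype cell 13 detected 11 beside 13.9%.

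Pericyte and smooth muscle genes, many of them of the contractile apparatus, had their highest sum of each genotype in its carrier. KO cell 11 detected 9 of 12 with a sum of 5326 RPKM, and the other 11 KO cells 1 to 7 with sums of 1.9 to 4242 RPKM. Wildtype cell 14 detected 4 of 12 with a sum of 1907 RPKM, and the other 8 wildtype cells 1 to 5 with sums of 198 to 1253 RPKM. Tagln, an actin-binding protein of smooth muscle, was at 545 RPKM in KO cell 11, where the other KO cells had a median of 0 and a maximum of 310 RPKM. It was at 160 RPKM in wildtype cell 14, and the rest of the wildtype cells reached 16.1 RPKM at most. Tpm2, a tropomyosin, was at 584 RPKM in KO cell 11, at most 0.38 RPKM in other KO cells, and listed at 0 in wildtype cell 14. Myl9, a myosin light chain, was at 1438 and 860 RPKM in KO cell 11 and wildtype cell 14. It was also detected in 6 other KO and 6 other wildtype cells, at up to 680 and 638 RPKM. Cald1, the actin regulator caldesmon, was at 1518 and 853 RPKM in the carriers, but reached 4240 RPKM in KO cell 9.

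Of mesenchymal transcription factors, the carriers detected an equal number but largely not the same ones. Each detected 8 of the 19 in the table, more than any other cell of its genotype, which detected 0 to 6 among KO and 0 to 4 among wildtype cells. Shared were 2 of the 8, Sox9, a factor of cartilage and urogenital tissue, and Nr2f2, the nuclear receptor COUP-TFII of veins and mesenchyme. How many of all detected genes the carriers share was not counted, so no difference between them is read from this overlap. The levels of Sox9 were 33.9 RPKM (KO cell 11) and 33.5 RPKM (wildtype cell 14), above every other cell, of which the highest was KO cell 6 at 11.3 RPKM. Nr2f2 was at 70.6 and 8.19 RPKM in the carriers, below wildtype cell 13 at 140 RPKM. KO cell 11, but not wildtype cell 14, also detected Twist2, Prrx1, Foxc1, Foxd1, Tbx18 and Pax1. Foxd1, a factor of kidney stroma, was at 190 RPKM there and listed at 0 in all other cells. Wildtype cell 14 instead had Prrx2, Zeb1, Zeb2, Tcf21, Osr1 and Wt1. Wt1, a factor of the developing urogenital ridge and mesothelium, had 0.0032 RPKM in KO cell 11, against 414 RPKM in wildtype cell 14, and KO cell 3 came next to it at 43.1 RPKM.

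Among other matrix genes, wildtype cell 14 detected 12 of 31, with a sum of 1380 RPKM, and no other wildtype cell detected more than 11 or summed to more than 752 RPKM. KO cell 11 detected 9 of 31 with a sum of 1660 RPKM, within the range of 3 to 22 genes and 6.16 to 2459 RPKM of the other KO cells. Mfap2, a microfibril protein, reached 1261 RPKM in KO cell 11, against 804 RPKM for wildtype cell 14, each the highest of its genotype. Ccdc80, a secreted matrix protein, was at 14.2 and 149 RPKM, Vcan, the proteoglycan versican, at 7.56 and 5.19 RPKM, and Timp3, an inhibitor of matrix proteases, at 24.2 and 17.9 RPKM. Vcan was otherwise detected only in KO cell 1, at 50.5 RPKM, the cell with the highest Postn. Timp3 was detected in 4 other KO and 5 other wildtype cells, some of them higher. Ccdc80 reached 132 RPKM in KO cell 8, above KO cell 11, and 8.26 RPKM at most in the other wildtype cells.

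Genes of collagen maturation were not set apart as a list. KO cell 11 and wildtype cell 14 detected 4 of 17 each, where other KO cells detected 2 to 12 and other wildtype cells 2 to 8. Serpinh1, the collagen chaperone HSP47, was nevertheless highest of the wildtype cells in cell 14, at 426 RPKM, against a median of 73.7 and a maximum of 188 RPKM in the others. In KO cell 11 it was at 156 RPKM, within the range of the other KO cells, whose median was 84.2 and maximum 235 RPKM. Plod2, a lysyl hydroxylase of collagen crosslinks, was at 99.2 RPKM in KO cell 11 and 0 in wildtype cell 14, and P4ha2, a subunit of prolyl 4-hydroxylase, was the reverse, at 0 and 43.5 RPKM. Pcolce, which promotes procollagen processing, was at 149 RPKM in KO cell 11 but at 1297 RPKM in KO cell 3.

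Other collagen chains did not follow the set. KO cell 11 detected 2 of 11, Col4a1 and Col11a1, and Col11a1, a fibrillar chain, was at 45.1 RPKM there and at most 18.3 RPKM in any other KO cell. Wildtype cell 14 detected 0 of 11, and the other wildtype cells 0 to 5. From the list of PDGF ligands and collagen receptors each carrier detected 2 of 10. Ddr2, a receptor tyrosine kinase activated by fibrillar collagen, had 0.059 RPKM in KO cell 11, against 46.6 RPKM for wildtype cell 14. Mrc2, an endocytic collagen receptor, was at 27.1 RPKM in KO cell 11, but at 115 RPKM in KO cell 1, and was listed at 0 in wildtype cell 14.

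**Figure D2:**
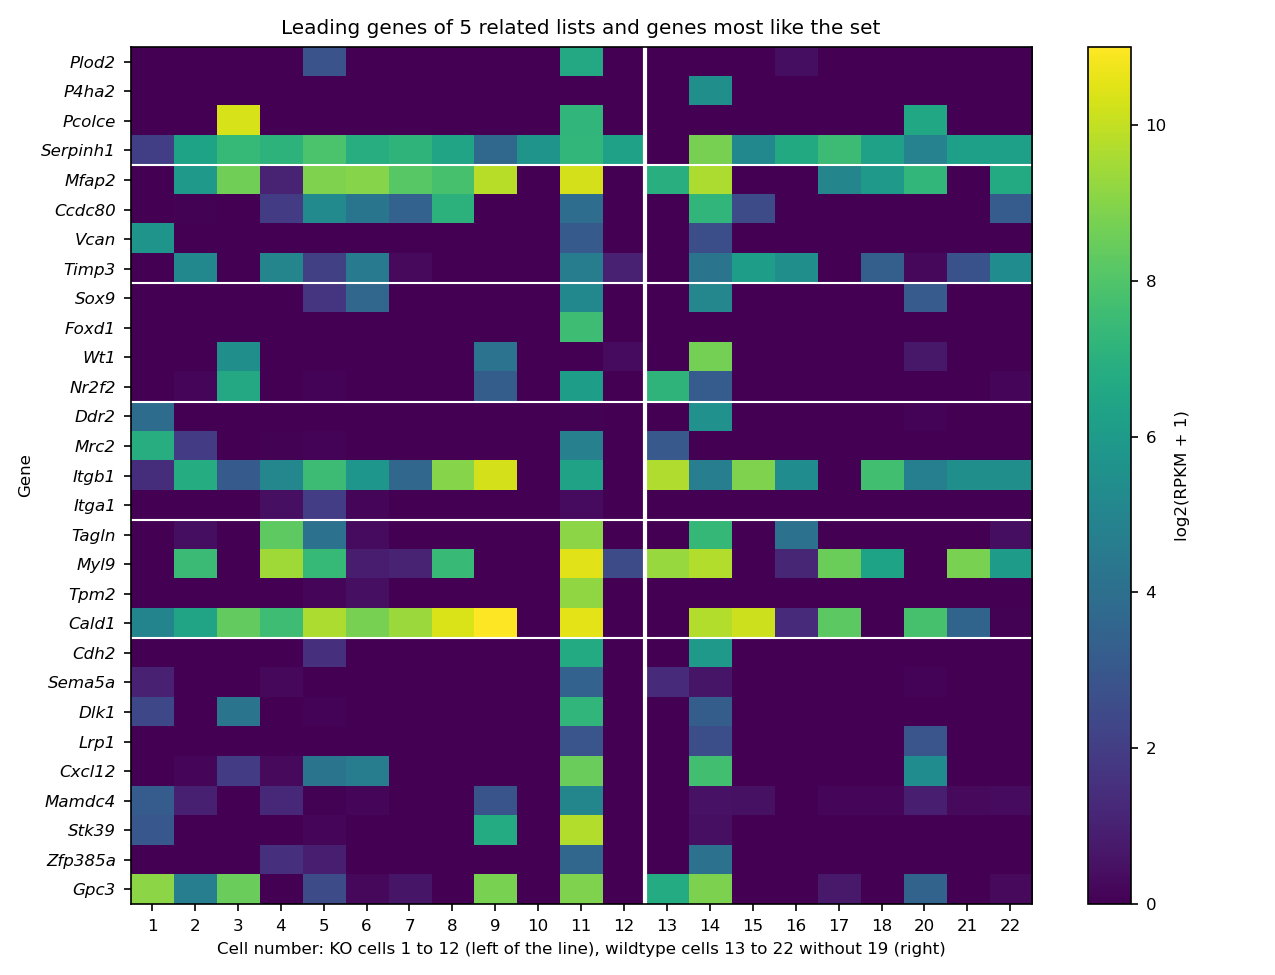
Level as log2(RPKM + 1) (colour) of the leading genes of 5 related lists and of genes whose pattern was most like the set, in 12 KO cells (left of the white line) and 9 wildtype cells (right). White horizontal lines part collagen maturation, other matrix genes, transcription factors, receptors, smooth muscle genes and the genes most like the set, from top to bottom. Sox9, Tagln, Cdh2 and Cxcl12 are high in both carriers, whereas Foxd1 and Tpm2 are high in KO cell 11 and Wt1 and P4ha2 in wildtype cell 14.

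The genes of endothelium and blood, the lineages T1 pre-HSCs belong to, had low sums in the carriers. Of 23 endothelial genes KO cell 11 detected 4, or 17.4%, beside 21.3% of all genes, and the other KO cells detected a median of 12. The endothelial sum of KO cell 11 was 32.3 RPKM, where the median of the other KO cells was 2823 RPKM. Wildtype cell 14 detected 5 of 23, or 21.7%, beside 27.3% of all genes, and the other wildtype cells detected a median of 14. The endothelial sum of wildtype cell 14 was 39.0 RPKM, where the median of the other wildtype cells was 3366 RPKM. The counts of both carriers thus lay near the share of all genes, and the sums lay far under those medians. Of 22 haematopoietic and pre-HSC genes KO cell 11 detected 3 (13.6%), Procr, Itga2b and Coro1a, and wildtype cell 14 detected 1 (4.55%), Procr. The haematopoietic sums were 105 and 2.20 RPKM, where the medians of the other KO and wildtype cells were 527 and 605 RPKM. Procr, the protein C receptor of pre-HSCs, was at 4.3 and 1.82 RPKM in the carriers. Itga2b, the integrin CD41 of early blood cells, was at 99.0 RPKM in KO cell 11 and listed at 0 in wildtype cell 14. It thus made up most of the 105 RPKM of KO cell 11, where it was the highest of the KO cells. The other KO and wildtype cells had medians of 0 and maxima of 61.8 and 499 RPKM for Itga2b. Ptprc, the pan-leukocyte marker CD45, was listed at 0 in both. It was seldom detected at all: of the 14 cells other than KO cells 1, 3, 9 and 11 and wildtype cells 13, 14 and 20, 2 detected it. Robo4, Lyve1 and Sox18, genes of endothelium and lymphatic endothelium, were listed at 0 in both too. Robo4 and Lyve1 were detected in only 2 other KO and 0 other wildtype cells, and Sox18 in 2 and 1. The zeros of these genes thus do not set the carriers apart. Efnb2, the arterial ephrin-B2, was at 7.75 and 0.20 RPKM, where the medians of the other KO and wildtype cells were 12.4 and 2.09 RPKM.

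Low endothelial sums were not limited to the carriers. In KO cells 1, 3, 9 and 11 the endothelial sum was 222, 107, 32.3 and 32.3 RPKM, and in wildtype cells 13 and 14 it was 23.6 and 39.0 RPKM. The other 15 cells had 715 to 9967 RPKM. Counts did not part the cells in this way. KO cells 1, 3, 9 and 11 detected 7, 7, 3 and 4 of 23 endothelial genes. Of all genes they detected 10.2%, 21.4%, 12.7% and 21.3%. Wildtype cells 13 and 14 detected 5 each, beside 13.9% and 27.3% of all genes. KO cells 10 and 12, among the other 15, detected 7 and 5, beside 15.2% and 12.1%. The 6 cells of low endothelial sum had the lowest haematopoietic sums. These were 0.010 to 117 RPKM, against 220 to 1375 RPKM in the other 15. Procr was at most 4.3 RPKM in the 6 cells. In the other 15 it ran from 0.75 to 635 RPKM with a median of 208 RPKM, so its values overlapped. Member sums in the 6 cells ran from 10.8 RPKM in KO cell 3 to 1010 RPKM in KO cell 11. In the other 15 they ran from 0 to 118 RPKM, with a median of 0.15 RPKM. The highest of the 15 was wildtype cell 20, with 118 RPKM of the set beside 2869 RPKM of the endothelial list. The 6 cells were picked out after their values were seen, and the part of these differences in the results was not tested.

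**Figure D3:**
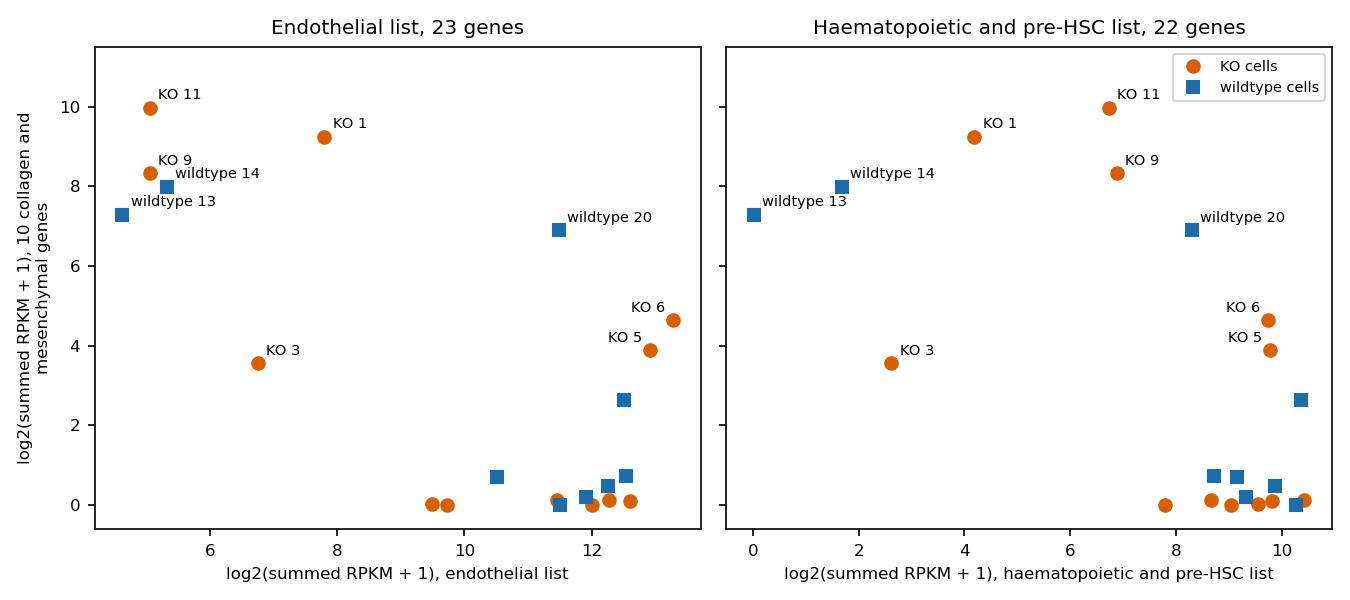
Summed RPKM of the 10 collagen and mesenchymal genes (vertical) against the summed RPKM of the endothelial list (left) and of the haematopoietic list (right), both as log2(sum + 1), 1 point per cell, with KO cells as circles and wildtype cells as squares. KO cells 1, 3, 9 and 11 and wildtype cells 13 and 14 lie to the left, with endothelial sums of 222 RPKM or less.

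Of markers of further cell types, the carriers detected few. Macrophage and myeloid genes were detected 1 of 11 in each, equal to the median of 1 in the other cells of either genotype, with sums of 1.48 and 1.60 RPKM. Erythroid genes were detected 0 of 10 and 1 of 10, where the other cells of each genotype had a median of 1. Epithelial and urogenital genes were detected 0 of 5 in both, again beside a median of 1. Neural genes were detected 1 of 7 in KO cell 11, namely Nes at 13.3 RPKM, where the summed list had a median of 0.070 RPKM and a maximum of 1094 RPKM in the other KO cells. Wildtype cell 14 detected 0 of 7 neural genes. Vim, the intermediate filament of mesenchyme and endothelium, had 861 RPKM in KO cell 11, against 1.07 RPKM for wildtype cell 14. It was detected in 17 of the other cells, at up to 1558 RPKM in KO cell 1.

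Across the 21 cells, the genes whose log2(RPKM + 1) was most like the mean of the set were, of 8966 compared, Cdh2 (Pearson r 0.85), Sema5a (0.81), Dlk1 (0.80), Lrp1 (0.78), Cxcl12 (0.78), Mamdc4 (0.78), Sox9 (0.77), Stk39 (0.77), Zfp385a (0.77) and Gpc3 (0.77). These are descriptions over cells that differ in detected genes and carry no p-value. Several of these values rested on the carriers. Without KO cell 11 and wildtype cell 14, r was 0.12 for Cdh2, 0.36 for Cxcl12 and -0.085 for Zfp385a, against 0.74 for Mamdc4 and 0.67 for Stk39. Cdh2, which encodes N-cadherin, was at 104 and 61.0 RPKM in KO cell 11 and wildtype cell 14 and at most 1.79 RPKM elsewhere. Cxcl12, the chemokine that retains blood stem cells in their niche, was at 355 and 200 RPKM in the carriers and at most 39.7 RPKM elsewhere, in wildtype cell 20.

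The r of Gpc3 was 0.77 both with and without the carriers, and that of Mamdc4 also moved little, from 0.78 to 0.74. Gpc3, a heparan sulfate proteoglycan of the cell surface, was at 548, 355, 438 and 468 RPKM in KO cells 1, 3, 9 and 11 and at 107 and 451 RPKM in wildtype cells 13 and 14. In the other 15 cells it was at 25.4 RPKM or less, so the 6 cells with low endothelial sums did not overlap the rest. Gpc3 was picked from 8966 genes for its likeness to the set, and the 6 cells were grouped after their values were seen. How many other genes part the same cells was not counted, so nothing is read from this. Dlk1, an imprinted growth regulator of embryonic mesenchyme, was detected in 4 cells, KO cells 1, 3 and 11 and wildtype cell 14, at 4.2, 17.6, 149 and 8.44 RPKM.

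Members followed each other in part. The r of a member with the mean of the other 9 was 0.69 for Col3a1, 0.66 for Dcn, 0.63 for Twist1, 0.61 for Lum, 0.59 for Col1a2 and 0.51 for Col1a1. Without the carriers it was 0.48 for Col1a1, 0.30 for Col3a1, 0.10 for Twist1, 0.093 for Col1a2, -0.12 for Dcn and -0.16 for Lum. Postn, high in a cell with Dcn, Lum and Col3a1 listed at 0, had an r of 0.067 with the carriers and 0.32 without them. The rest did not follow the set either, with an r of -0.042 for Col5a1, -0.050 for Pdgfra and 0.10 for Pdgfrb. Without the carriers these were 0.044, 0.026 and 0.33.

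The remaining genes of the likeness ranking were detected in few cells. Stk39, a kinase, was at 839 RPKM in KO cell 11 but 0.36 RPKM in wildtype cell 14. Lrp1, an endocytic receptor, was at 6.43 and 5.22 RPKM in the carriers and 6.41 RPKM in wildtype cell 20. Across 3866 genes, the Spearman rho between the carriers was 0.37, beside a median of 0.35 over all pairs of the 21 cells.

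The genotype differences were small beside the spread over cells and rested on single cells. The main value is the difference of mean log2(RPKM + 1), KO minus wildtype, where the added 1 understates changes of low genes, and a size of 1 counted as large. With all cells, 1 member of 10 was higher in KO by this rule, where 5.85% of all 14833 genes were, and 1 was lower, where 10.6% were. Both counts are close to that background. The median difference over the members was 0.21, and that over all genes was 0. No member was detected in 50% or more of the cells of either genotype, so 0 of 10 passed that filter on low values. Of the 3867 genes that passed it, 11.4% were higher and 28% lower in KO cells by 1 or more, and without both carriers 11.2% and 30.2%.

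Col1a1 was the member higher in KO cells, with means of log2(RPKM + 1) of 1.72 ± 2.77 over 12 KO cells and 0.64 ± 1.84 over 9 wildtype cells (SD), which differ by 1.08. Col1a2 was the member lower in KO cells, with 0.70 ± 1.55 over KO cells and 1.72 ± 2.75 over wildtype cells and -1.03 between them. The SDs exceed both differences, and the chains of 1 protein differed in opposite directions. Both lie so near the limit of 1 that single cells decided them. Col1a1 was under it without KO cell 1, 3, 9 or 11 or without wildtype cell 13, 15, 16, 17, 18, 20 or 21, each left out alone. Col1a2 was within it without KO cell 1, 2, 4, 6, 7, 8, 9, 10 or 12 or without wildtype cell 14, 18 or 20. The other differences were 0.65 for Lum, 0.60 for Postn, 0.28 for Dcn, 0.26 for Col3a1, 0.16 for Col5a1, 0.058 for Pdgfra, -0.13 for Pdgfrb and -0.39 for Twist1. The scale mattered for genes carried by few cells: as the log2 ratio of mean RPKM, with 1 added to each mean, the values were 5.02 for Postn, 4.68 for Lum, 2.03 for Col1a1, 1.96 for Col3a1 and -2.13 for Col1a2, and Twist1 turned to 0.54.

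Leaving out KO cell 11 turned 3 members round. Without it the difference was -0.30 for Col3a1, -0.27 for Dcn and -0.033 for Lum, and Twist1 lay further below 0, at -1.06. The median over the members was -0.080, with 0 of 10 large and higher in KO (6.73% of all genes) and 2 of 10 large and lower (10.4%), Col1a2 at -1.45 and Twist1. Col1a1 was then at 0.95, under the limit of 1.

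Leaving out wildtype cell 14 raised the differences of Col1a1, Col1a2, Col3a1, Dcn and Twist1 and left that of Lum at 0.65. The difference was then 1.69 for Col1a1, 0.83 for Col3a1, 0.96 for Dcn, -0.48 for Col1a2 and -0.093 for Twist1. The median was 0.37, with 1 of 10 large and higher (6.55% of all genes) and 0 large and lower (11.3%).

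Without both carriers, 11 KO and 8 wildtype cells remained. Col1a1 stood at 1.56, Col1a2 at -0.90, Col3a1 at 0.27, Dcn at 0.42, Lum at -0.037, Postn at 0.66 and Twist1 at -0.77. Col3a1 thus lay close to its value with all cells, while Lum had no detected value left. The median was 0.12, with 1 of 10 large and higher (7.28% of all genes) and 0 large and lower (11.1%). Leaving out both cells moved 1 of 10 members by 0.5 or more, Lum, and 11.0% of all genes.

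**Figure D4:**
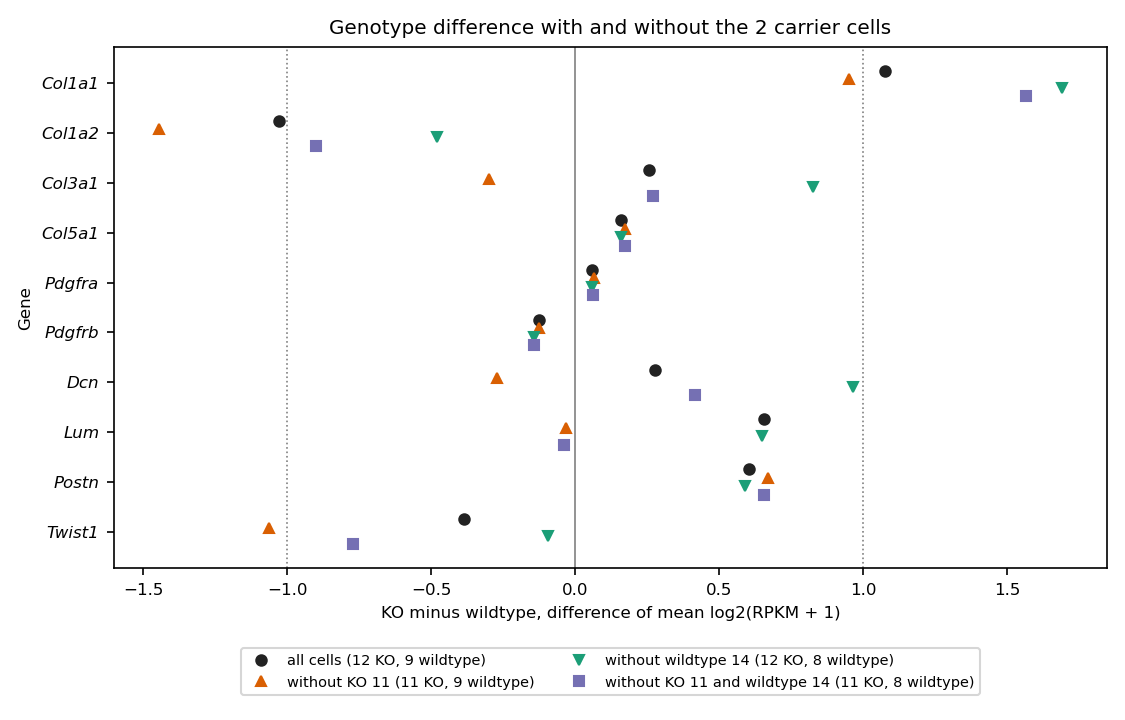
Difference of mean log2(RPKM + 1), KO minus wildtype, for each of the 10 genes with all cells (circles), without KO cell 11 (upward triangles), without wildtype cell 14 (downward triangles) and without both (squares). Dotted lines mark a size of 1. Col3a1 and Dcn cross 0 without KO cell 11, at -0.30 and -0.27, and lie at 0.83 and 0.96 without wildtype cell 14.

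Other single cells also moved the differences. Without KO cell 1 the Col1a1 difference was 0.55 and that of Postn was -0.12. Without KO cell 9 that of Col3a1 was -0.32. Without wildtype cell 20 that of Col1a2 was -0.42, and without wildtype cell 13 that of Twist1 was 0.36. Without KO cells 1, 3, 9 and 11 and wildtype cells 13 and 14, the 6 cells with the lowest endothelial sums, the median over the members was -0.068, and Col1a1 was at -0.021. The 6 include every cell that detected Col1a1, so its difference near 0 was fixed by the choice. This last choice of cells was made after seeing the data.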

How the data were processed

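Single-cell RNA was measured in 12 KO and 10 wildtype T1 pre-HSCs. The authors deposited 1 table of RPKM values with 1 column per cell, and the submitters' processing notes name Cufflinks 2.1.0 and mm10. Which aligner and annotation were used, and how reads of similar genes were shared out, was not stated. Because RPKM is relative to the total of a cell, a few abundant genes lower all other values. Whole reads and depth are unknown, and replicate spread is over cells only. The table of 26 adult HSCs lists 0 of the 10 genes and was not used, and the 5 methylation samples were not analysed here.

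Columns were matched to samples by cell number. Wildtype cell 19 was left out after its stretches of rows, from row 25 on, were set against the other cells at offsets of up to 5 rows. Differences are of mean log2(RPKM + 1), with a pseudocount of 1 and no filter. The script was checked on simulated data. The genes named are all members, H19, up to 4 genes per list with the largest excess in KO 11 and wildtype 14, and the 10 genes most like the set by Pearson r among those detected in at least 3 cells. Those of the macrophage, erythroid, epithelial and neural lists are given as counts, apart from Nes. Procr, Ptprc, Vim and genes given only as detected in a carrier were chosen after their values were seen. Members and lists were chosen with earlier results of these data known. Alternatives changed the pseudocount, scaling, averaging, detection limit and cells. Among 292 pairs of values above 0 in the member rows, 0 shared 5 or more digits. Analyses used Python 3.11.15, numpy 2.4.6 and pandas 2.3.3.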

Additional observations from a re-analysis of the deposited data

Results flagged for a closer look

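Among the 9 wildtype cells, single cells stood apart from the rest on the log2(RPKM + 1) scale for 5 of the 10 members and for their mean, judged by the gap to the nearest cell as a share of the whole range (Dixon's limit for 9 cells is 0.493). The gap was 0.96 of the range for Col1a1 and 0.997 for Dcn, both in wildtype cell 14, 1 for Pdgfrb in wildtype cell 20, 1 for Lum in wildtype cell 22 and 0.503 for Twist1 in wildtype cell 13. For the mean of the members it was 0.528, in wildtype cell 14. Wildtype cell 14 had been picked out for carrying these genes, so its gaps restate that choice. Pdgfrb and Lum reached only 1.25 and 0.23 RPKM in those cells, above 8 cells listed at 0. Chance flags about 1 in 20 groups under normal values, which genes listed at 0 in most cells are not. The 12 KO cells are too many for this rule.

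Wildtype cell 19, which was not compared, listed Lum at 38.5 RPKM, Postn at 7.34 RPKM and Pdgfra at 1.13 RPKM, each above every other wildtype cell. Around these rows its column was out of step by 1, 1 and 2 rows, so the values may belong to neighbouring genes.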

How the results depend on the processing

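The median difference over the members stayed between -0.080 (without KO replicate 11) and 0.37 (without wildtype replicate 14) when each cell was left out in turn, and between -0.068 and 0.56 under the other settings. The number of members higher in KO by 1 or more was 1; it was 0 with a pseudocount of 10, with medians over cells, with the 8 KO and 8 wildtype cells of at least 3000 detected genes, and without the 6 cells of low endothelial sum. It was 4 with the ratio of mean RPKM (Col1a1, Col3a1, Lum and Postn) and ranged from 0 to 1 over single cells left out. The number lower by 1 or more, also 1, was 0 with a pseudocount of 10, with medians, with wildtype cell 19 kept, without both carriers and with the cells of at least 3000 genes, and ranged from 0 to 2 over single cells left out. Col1a2 turned to 0.045 with medians over cells and Col1a1 to -0.021 without the 6 cells, which include every cell that detected Col1a1. The causes of the other changes were not tested.

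The number of carrier cells stayed at 2 with detection at 0.1, 5 or 10 RPKM and with equal totals. It was 5 where 3 members were required and 0 where 7 were. At 10 RPKM, KO cell 11 detected 31 and wildtype cell 14 detected 21 of the 100 related genes. The filter on low values left 0 members, so it gave no value. No paired analysis was possible because the labels name no embryo or litter by which cells could be paired. As depth is unknown, an undetected member is not shown to be absent.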
